A study of Mus musculus with 204 samples.

Results

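The comparison described here sets midbrain and brainstem tissue of the mouse against its cerebral cortex, in 20 of the 204 libraries of a series of RNA sequencing in many tissues. The labels give 10 libraries of midbrain and brainstem (called brainstem below) and 10 of cortex, chosen by title. All came from male C57BL/6J mice, an inbred strain with no transgene in the labels. In each region 5 libraries were from mice made obese by a diet with 60% fat for 10 weeks (diet-induced obese, DIO) and 5 from lean mice on chow with 13.1% fat. High-fat feeding began at 4 weeks of age per the treatment protocol, and the protocols in the labels do not give one consistent age. The design names 5 lean and 5 DIO mice, so both regions may come from the same animals, but the labels do not tie libraries to mice. The p-values therefore measure the spread between these libraries.

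Of 13153 genes in the deposited table, 2382 had a mean of at least 10 counts per 1 M reads (CPM) over the 20 libraries and were tested. Differences are log2(CPM + 1) in brainstem minus that in cortex, with diet as a second term, given ± standard error (SE) from limma, with p adjusted by the Benjamini-Hochberg method over the 2382 genes. This scale understates the difference of genes at a few CPM. A gene near 0 in one region entered the test only if it was high in the other. Where a tested gene had a mean under 10 CPM in one region, the filter fixed its direction, also in the counts of lists below. CPM is not divided by gene length, so levels are compared between regions and not between genes.

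As background, the cortex is built of layers of glutamate neurons born in the forebrain, with GABA interneurons that migrate in from below. The midbrain and brainstem derive from more caudal parts of the neural tube, hold the nuclei of noradrenaline, serotonin and dopamine neurons and of the cranial nerves, and are crossed by long myelinated tracts. Caudal identity is set by homeobox genes such as the Hox clusters, and forebrain identity by other transcription factors such as Tbr1 and the Dlx genes.

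The 20 libraries held between 12 and 23.6 M reads, and the table held 21 to 22.7% of each, because it covers chromosomes 1, 2, 3 and X and the first 40.3 Mb of chromosome 4. Genes elsewhere, among them many known markers of dopamine and serotonin neurons, were not analysed here. In each of 5 libraries, called those that stood apart below, markers of another region were high, shown in the plot of markers by library. Libraries are numbered here in the order of the samples within each region and diet, as the titles carry no replicate numbers. The brainstem DIO 4 library had 165 CPM of Car8 and 54.9 CPM of Neurod1, cerebellar genes that reached 40.8 and 10.7 CPM in the other 9. Brainstem DIO 3 and lean 1 had 6.86 and 7.60 CPM of cortical Tbr1, against at most 4.08 in the other 8. The next values were 4.08 in lean 2 and 2.94 in DIO 1, so Tbr1 showed no clear gap. Cortex DIO 5 had 15.6 CPM of Avp and 4.49 CPM of Oxt, hypothalamic hormones at no more than 0.59 and 0.0984 CPM in other cortex libraries, and cortex lean 1 had the highest Penk (506 CPM), a gene abundant in striatum. Without these 5 libraries the counts of genes were 1577 and 317 in place of the 1682 and 298 given next. Lastly, Atp5e, a small subunit of ATP synthase, parted each region into 6 libraries at 19.9 to 29.7 CPM and 4 at 55.6 to 82.9, with both diets on both sides in both regions. The high libraries were brainstem DIO 2 and 3 and lean 1 and 3, and cortex DIO 1, 3 and 5 and lean 3, so diets were uneven in cortex. The split was not limited to such subunits: the receptor gene Oprl1 had 81.4 to 90.0 CPM in the high brainstem libraries and 48.4 to 59.6 in the others.

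**Figure D1:**
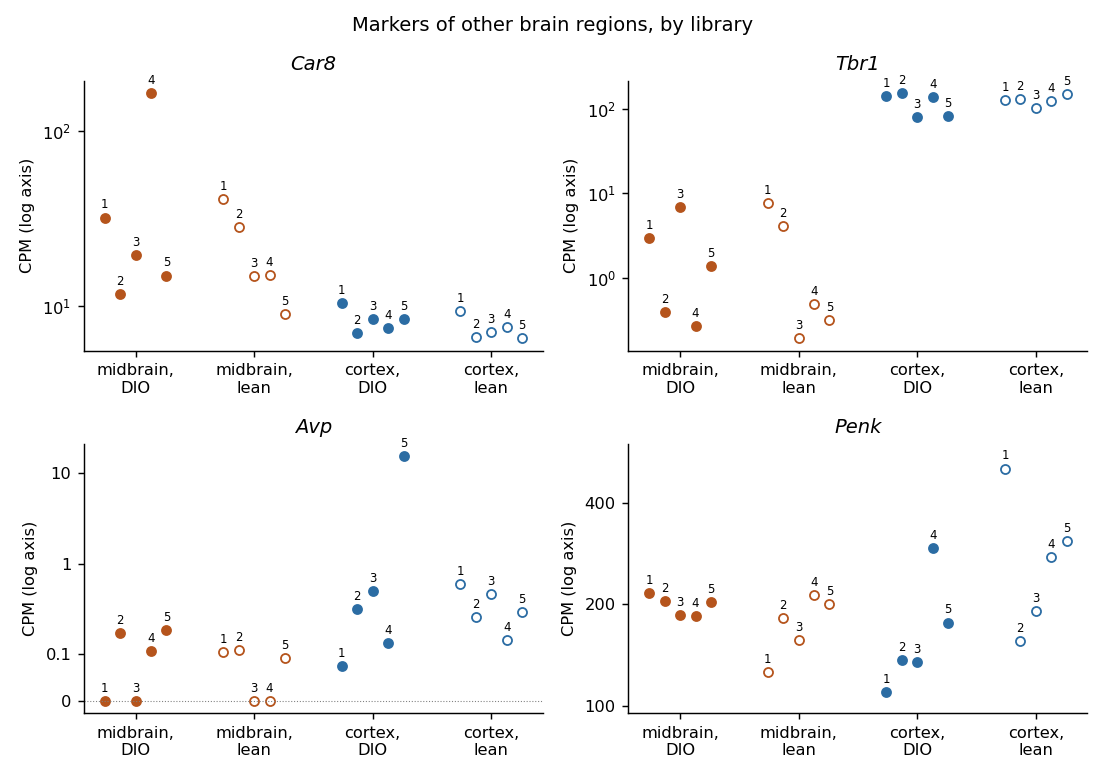
Levels of Car8 (cerebellum), Tbr1 (cortex), Avp (hypothalamus) and Penk (striatum) in CPM on log axes, by region and diet. Each point is 1 library, numbered in the order of the samples within region and diet, filled for DIO and open for lean. A level of 0 of Avp lies on the dotted line. Brainstem DIO 4 stands at 165 CPM of Car8 and cortex DIO 5 at 15.6 CPM of Avp.

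The regions differed in 1682 of the 2382 genes (70.6%) at an adjusted p under 0.05, of which 932 (39.1%) were higher in brainstem and 750 (31.5%) higher in cortex. Which side held more genes depended on the scaling: 810 were higher in brainstem and 891 in cortex after rescaling by median-of-ratios (the size factors of DESeq2), and 831 and 875 in edgeR on the read counts recovered from the CPM. The difference was at least 2-fold in 298 genes (12.5%), 147 (6.17%) higher in brainstem and 151 (6.34%) in cortex. All 10 libraries of one region lay above all 10 of the other in 849 genes (35.6%), of which 475 (19.9%) were higher in brainstem and 374 (15.7%) in cortex. At least 4-fold differences were seen in 57 genes, 18 higher in brainstem and 39 in cortex. The median difference over all tested genes was 0.05. As these were bulk samples, fewer cells of a type and less RNA per cell cannot be told apart in any result below.

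**Figure D2:**
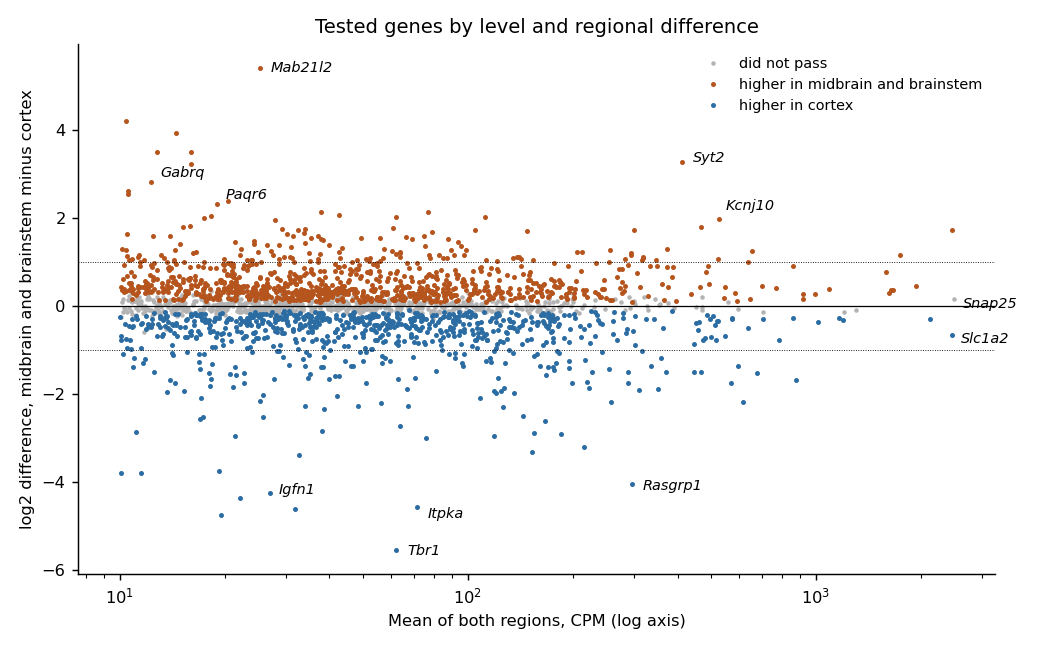
The mean level over both regions (CPM, log axis) of each of 2382 tested genes against its log2 difference, brainstem minus cortex, coloured by whether it passed the adjusted p and in which direction; dotted lines mark 2-fold. Tbr1 lies at -5.54 on the cortex side and Mab21l2 at 5.42 on the brainstem side.

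Transcription factors and signalling genes of cortical neurons were among the genes furthest toward cortex. Tbr1, a T-box factor of early-born and deep-layer cortical neurons, had 80.1, 128 and 152 CPM (lowest, median and highest library) in cortex and 0.192, 0.94 and 7.6 in brainstem, a difference of -5.54 ± 0.35 (adjusted p = 3.20e-12). Every cortex library was above every brainstem library, and the highest brainstem values were those of DIO 3 and lean 1. Rasgrp1, an exchange factor that activates Ras, was at 512, 541 and 634 CPM in cortex and 18.2, 32.2 and 62.5 in brainstem (-4.05 ± 0.17, adjusted p = 4.45e-15). Rasgrp1 did not overlap between the regions either, as the choice of the 15 genes furthest toward cortex required of both genes. Itpka, an inositol trisphosphate kinase of dendritic spines, differed by -4.57 ± 0.26, Igfn1 by -4.23 ± 0.30 and Lhx2, a LIM homeobox factor of the developing cortex, by -3.38 ± 0.20.

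Other genes among the 15 furthest toward cortex encode signalling proteins. Pde1a, a calmodulin-dependent phosphodiesterase, had 211 ± 26.1 CPM (mean ± SD, n = 10) in cortex and 27 ± 6.19 in brainstem (-2.94 ± 0.11). Cnksr2, a scaffold of the postsynapse, had 273 ± 38.8 and 37.2 ± 10.7 CPM (-2.88 ± 0.13), and Ngef, a guanine nucleotide exchange factor, 286 ± 52.2 and 46.8 ± 13.3 (-2.61 ± 0.13). The differences were -3.31 ± 0.12 for 2010300C02Rik, -3.20 ± 0.14 for Stum, -2.90 ± 0.12 for Vxn and -2.72 ± 0.08 for Inka2, an inhibitor of the kinase PAK4. None of these 7 genes overlapped between regions, as the choice of the 15 required.

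Of the 16 cortical neuron genes listed, all tested, 13 were higher in cortex (31.5% of all tested genes were) and 12 of these did not overlap between regions (15.7%). The list's median difference was -2.29 against 0.05 over all tested genes. The 13 include Tbr1, Itpka, Igfn1, Lhx2, Nr4a2 and Rprm, whose means were under 10 CPM in brainstem. These passed the filter only through cortex, which fixed their direction. Beside those named above, Lmo4 (-2.07 ± 0.09) and Zbtb18 (-1.73 ± 0.11), both transcriptional regulators, Rprm (-2.51 ± 0.12), Rgs4, which curbs G-protein signalling (-1.73 ± 0.08), Calb1, a calcium buffer (-0.98 ± 0.16), and the growth factor gene Bdnf (-1.38 ± 0.09) were higher in cortex. Calb1 was the one of the 13 whose regions overlapped, since brainstem DIO 4 had 126 CPM against 68 or less in the other 9. The other 3 listed genes were higher in brainstem. Lamp5, a lysosomal membrane protein that marks upper-layer and interneuron types in cortex, had 181, 266 and 299 CPM in brainstem and 142, 193 and 285 in cortex (0.36 ± 0.12, adjusted p = 0.0106). Syt6, a synaptotagmin of layer 6, differed by 0.36 ± 0.12 (adjusted p = 0.0122) and Hsd11b1, which regenerates active glucocorticoid, by 0.95 ± 0.10 (adjusted p = 1.96e-08). The ranges of all 3 overlapped. The call of Lamp5 was lost in a fit of 40 libraries of 4 brain regions (adjusted p = 0.501), in DIO libraries alone (adjusted p = 0.0804), in lean libraries alone (adjusted p = 0.0506) and with rescaling (adjusted p = 0.0506). That of Syt6 was lost in lean libraries alone (adjusted p = 0.24), in edgeR (adjusted p = 0.103), in DESeq2 (adjusted p = 0.0744) and with rescaling (adjusted p = 0.0552).

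Genes that specify forebrain GABA interneurons were near 0 in brainstem. Dlx1, a homeobox factor of interneuron precursors, had 16.2, 19.8 and 21.7 CPM in cortex and 0.136, 0.388 and 1.82 in brainstem (-3.80 ± 0.13, adjusted p = 3.95e-16). Among the 4 listed genes it alone passed the filter on level, and only through cortex, which fixed its direction. Dlx2, its relative, ranged over 3.82 to 6.93 CPM in cortex and 0 to 0.667 in brainstem, and Sp9, a zinc finger factor, over 2 to 9.89 and 0.397 to 0.85. None of these 3 overlapped between regions, while 15.7% of all tested genes lay without overlap toward cortex. Dlx2 and Sp9 were not tested. Hypothalamus, a forebrain region, had a mean of 21 CPM of Dlx1, and cerebellum 1.51.

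Of 4 striatal markers 3 were higher in cortex (31.5% of all tested genes were) and 1 did not pass. Among these were Chrm4, a muscarinic receptor (20.2 ± 3.6 CPM in cortex, 1.95 ± 0.548 in brainstem, -2.85 ± 0.11), and Pdyn, the prodynorphin gene (28.8 ± 6.6 and 7.56 ± 2.04 CPM, -1.80 ± 0.14). Chrm4 and Pdyn passed the filter on level only through cortex, which fixed their direction. Penk, the proenkephalin gene, had 110.3, 184 and 506 CPM in cortex and 126, 194 and 216 in brainstem and did not pass (-0.15 ± 0.20, adjusted p = 0.525), at 0.05 without the 5 libraries that stood apart and 0.31 in DIO libraries alone. Summed over the 4 genes, cortex lean 1 reached 857 CPM, and the cortex median was 326 CPM. Whether striatal tissue was part of the cortex samples was not tested.

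**Figure D3:**
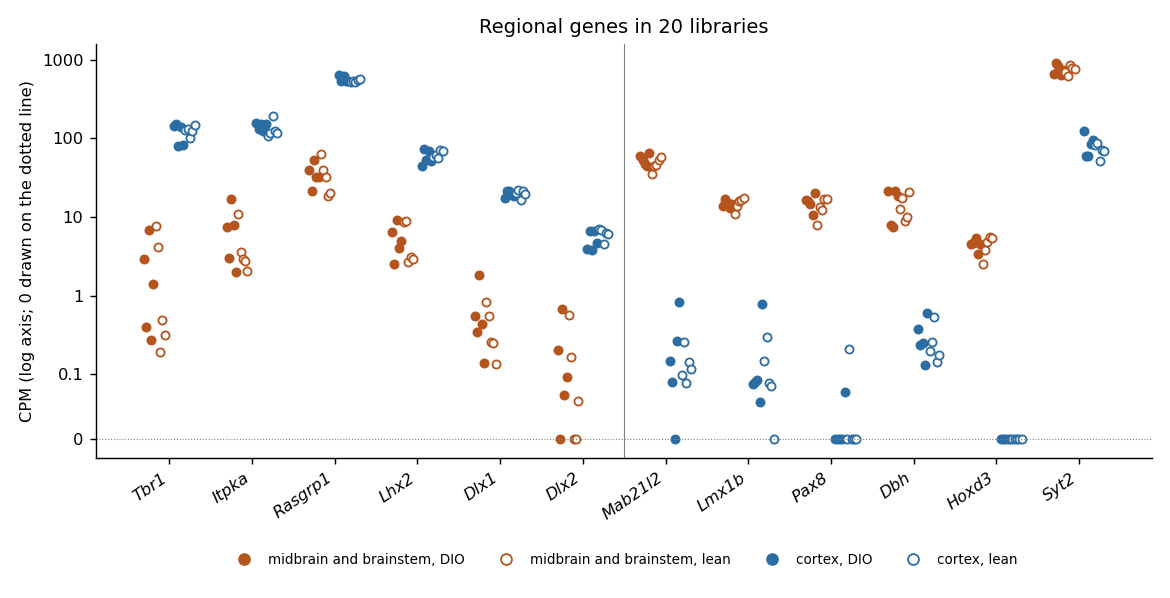
Levels in CPM (log axis, 0 on the dotted line) of 12 regional genes in each of 20 libraries, filled points for DIO and open points for lean; genes left of the line are higher in cortex and those right of it in brainstem. None of the 12 overlaps between regions, and Hoxd3 is at 0 in all 10 cortex libraries. The choice of Tbr1, Itpka, Rasgrp1, Lhx2, Mab21l2 and Syt2 required this lack of overlap. Dlx2, Lmx1b, Pax8, Dbh and Hoxd3 were below the filter and not tested. Among all tested genes 35.6% did not overlap, and the 12 were picked for display, so their lack of overlap is no result about their lists.

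On the brainstem side the gene with the largest difference was Mab21l2, a developmental regulator expressed in the embryonic midbrain and eye. It had 34.8, 49.4 and 65.7 CPM in brainstem and 0, 0.129 and 0.838 in cortex (5.42 ± 0.11, adjusted p = 5.35e-20), with hypothalamus and cerebellum between at means of 5.32 and 7.66 CPM. Mab21l2 passed the filter only through brainstem, which fixed its direction. It lies within the gene Lrba on the opposite strand, which had a mean of 45.2 CPM over the 20 libraries. Whether reads were counted by strand is not given in the sources used here, although the kit marks strand. Syt2, the fast calcium sensor of transmitter release at hindbrain and spinal synapses, was at 618, 741 and 909.9 CPM in brainstem and 50.9, 75.8 and 122 in cortex (3.28 ± 0.12, adjusted p = 6.49e-16). No library overlapped for either gene, as the choice of the 15 genes furthest toward brainstem required. Syt2 in turn overlaps Ppp1r12b (mean 119 CPM). Mean Syt2 was 501 CPM in cerebellum and 190.0 in hypothalamus.

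Most regulators of midbrain and hindbrain identity stayed below the filter, which is on the mean over both regions, and they are given as levels with no test. Of 20 listed, 3 were tested. Mab21l2 and Zfhx4, a large zinc finger homeodomain factor (56.2 ± 10.2 CPM in brainstem, 17.8 ± 3.48 in cortex, 1.61 ± 0.12), were higher in brainstem and Tox, an HMG-box factor, was higher in cortex (-0.65 ± 0.11). Lmx1b, a LIM homeobox factor of serotonin and dopamine neurons, ranged over 10.9 to 17.3 CPM in brainstem and 0 to 0.778 in cortex. Pax8, a paired-box factor, ranged over 7.81 to 19.9 and 0 to 0.212 CPM, Gata3, a zinc finger factor of hindbrain neurons, over 2.73 to 11.6 and 0 to 1.14, and En1, the engrailed factor of the border between midbrain and hindbrain, over 0.728 to 8.32 and 0 to 0.593. None of these 4, chosen from the 17 listed genes below the filter, overlapped. Among all tested genes 19.9% lay without overlap toward brainstem, and these 4 were not tested. Foxa2, of the ventral midline, did overlap, at most 0.827 CPM in brainstem, and brainstem values of En1 spread over a wide range.

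Genes of the HoxD cluster on chromosome 2, from Hoxd1 to Hoxd9, had reads in brainstem. Hoxd3 had 2.5, 4.6 and 5.59 CPM in brainstem and no read in any cortex library, and the same held for Hoxd4 (0.872 to 2.89 CPM in brainstem) and Hoxd9 (0.0462 to 0.793 CPM). Against a floor of 3 counts over the 10 cortex libraries (0.0181 CPM), the mean of Hoxd3 was at least 246-fold higher, that of Hoxd4 at least 100.1-fold and that of Hoxd9 at least 21.1-fold higher in brainstem. The annotated models of Hoxd3 and Hoxd4 overlap, so reads could have been split between them. Hoxd1 ranged over 1.2 to 2.72 CPM in brainstem and 0 to 0.0784 in cortex. Hoxd8 varied more between brainstem libraries, from 0.277 to 12.3 CPM, and was at most 0.0424 CPM in cortex. Hoxd10, nearer the posterior end, had no read in either region.

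Promoter sequences of 3 genes of the brainstem side and 1 of the cortex side are shown because their levels parted the regions without overlap. Each is the 250 bases before the RefSeq start on the gene's strand, from the RefSeq table for GRCm38.p6, at chr3:86548284-86548533 (minus strand) for Mab21l2, chr2:74711743-74711992 (plus) for Hoxd3, chrX:101376126-101376375 (plus) for Gjb1 and chr2:61804203-61804452 (plus) for Tbr1. The GENCODE M21 models of Mab21l2 and Tbr1 start further upstream, so by that annotation these 2 windows lie within the gene. Capitals mark ACAAAG, the core of SOX sites, and AGGTGT, the core of T-box sites, on either strand; the E-box CAGATG was also searched and was in none of the 4.
Mab21l2: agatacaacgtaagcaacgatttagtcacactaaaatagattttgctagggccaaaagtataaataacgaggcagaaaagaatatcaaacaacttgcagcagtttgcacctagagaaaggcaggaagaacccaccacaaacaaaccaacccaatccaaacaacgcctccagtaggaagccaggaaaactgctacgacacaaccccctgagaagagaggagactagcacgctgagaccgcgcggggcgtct
Hoxd3: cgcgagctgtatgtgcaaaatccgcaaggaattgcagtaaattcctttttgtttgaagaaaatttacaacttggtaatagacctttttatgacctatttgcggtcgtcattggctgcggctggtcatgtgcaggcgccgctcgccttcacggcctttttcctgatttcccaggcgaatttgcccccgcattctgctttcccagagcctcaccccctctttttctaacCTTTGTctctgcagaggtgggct
Gjb1: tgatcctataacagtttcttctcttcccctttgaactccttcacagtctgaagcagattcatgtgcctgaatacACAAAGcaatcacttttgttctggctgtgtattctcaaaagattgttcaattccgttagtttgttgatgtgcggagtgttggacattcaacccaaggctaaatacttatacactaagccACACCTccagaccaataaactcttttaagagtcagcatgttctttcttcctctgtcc
Tbr1: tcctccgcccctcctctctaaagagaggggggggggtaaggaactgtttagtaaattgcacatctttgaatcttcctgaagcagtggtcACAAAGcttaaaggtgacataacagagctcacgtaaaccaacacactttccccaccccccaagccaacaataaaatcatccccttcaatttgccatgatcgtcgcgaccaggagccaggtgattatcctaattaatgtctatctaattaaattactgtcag
Of the 1977 tested genes with a promoter in the table, 11.8% held ACAAAG, 10.2% CAGATG and 9.51% AGGTGT in this window. Among 127 promoters of genes at least 2-fold higher in brainstem the shares were 11.8%, 12.6% and 8.66%, and among 118 of genes at least 2-fold higher in cortex they were 10.2%, 8.47% and 14.4%. These shares are descriptions, and a match is not evidence of binding.

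Myelin genes were higher in brainstem as a whole list. All 23 listed genes were tested and all 23 were higher there (39.1% of all tested genes were), 19 of them by at least 2-fold (6.17%) and 22 with no overlap (19.9%), with a median difference of 1.31 against 0.05 over all genes. Hapln2, a hyaluronan link protein at nodes of Ranvier, had 98.4, 126 and 154 CPM in brainstem and 19.7, 27.5 and 41.4 in cortex (2.15 ± 0.10, adjusted p = 4.53e-14), and Gjb1, the gap junction protein connexin 32, 54.7, 73.4 and 78.9 CPM in brainstem and 10.9, 15.8 and 22.5 in cortex (2.09 ± 0.11). For both, the lowest brainstem library was above the highest cortex library, as the choice of the 15 genes furthest toward brainstem required.

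Lipid and membrane genes of oligodendrocytes were in the same range. Ugt8a, which makes galactocerebroside, differed by 1.73 ± 0.12, Bcas1, a protein of newly myelinating cells, by 1.81 ± 0.13, Ermn by 1.70 ± 0.12, Prr5l by 1.75 ± 0.12 and Abca2, a lipid transporter, by 1.07 ± 0.04. Cntn2, an adhesion protein of the juxtaparanode, had 410.1 ± 30.3 CPM in brainstem and 177 ± 17.9 in cortex (1.21 ± 0.06), and Mal, a proteolipid, 455 ± 33.3 and 245 ± 45.8 (0.91 ± 0.09). The smallest difference was that of Tmeff2 (0.19 ± 0.06, adjusted p = 0.0059), the only listed gene whose regions overlapped, and its call was lost in DIO libraries alone (adjusted p = 0.0789). The summed level of the list was 7046 to 10058 CPM in brainstem and 2355 to 4108 in cortex. Genes of oligodendrocyte precursors moved apart. Neu4, a sialidase, was higher in brainstem (0.62 ± 0.11), Tnr, the matrix protein tenascin R, was higher in cortex (-0.51 ± 0.06), and Matn4 was below the filter at 6.01 to 12.9 CPM in brainstem and 7.37 to 12.9 in cortex.

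**Figure D4:**
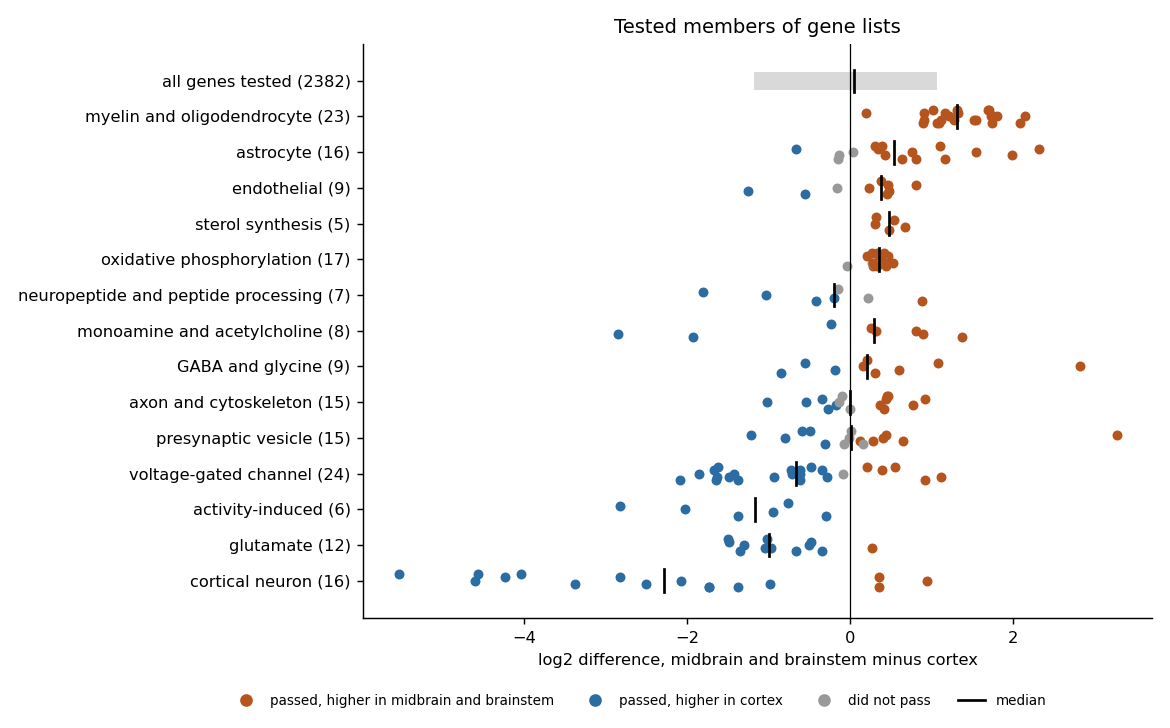
The log2 difference, brainstem minus cortex, of each tested member of 14 gene lists (number tested in parentheses), coloured by call and direction, with each list's median as a bar; the grey band holds the central 90% of all tested genes. The 23 myelin genes all lie right of 0, with a median of 1.31, while 13 of 16 cortical neuron genes and 11 of 12 glutamate genes lie left of it.

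Astrocyte genes differed from one another in direction. Of 16 tested, 12 were higher in brainstem (39.1% of all tested genes were), 1 was higher in cortex (31.5%) and 3 did not pass, with a median of 0.54. After rescaling by median-of-ratios 10 were higher in brainstem and 3 in cortex. Kcnj10, the potassium channel through which glia clear potassium, had 681, 824 and 1021 CPM in brainstem and 145, 216 and 250.1 in cortex (1.99 ± 0.09, adjusted p = 7.30e-15). By contrast Slc1a2, the main glutamate transporter of astrocytes and also in the glutamate list, had 1735, 1886 and 2135 CPM in brainstem and 2641, 3008 and 3445 in cortex (-0.66 ± 0.04, adjusted p = 9.63e-12). Neither overlapped, so the channel lay above cortex in every brainstem library and the transporter below it. For Kcnj10 the choice of the 15 genes furthest toward brainstem required this.

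Paqr6, a membrane receptor for progestins, had the largest difference of the astrocyte list (2.32 ± 0.09; 32.3 ± 4.6 CPM in brainstem and 5.68 ± 1.03 in cortex), followed by Kcnj10 and Etnppl, which breaks down phosphoethanolamine (1.55 ± 0.11). Paqr6 passed the filter only through brainstem, which fixed its direction. Glul, glutamine synthetase, was 1795 ± 165 CPM in brainstem and 1451 ± 145 in cortex (0.31 ± 0.06). Cst3, cystatin C, did not pass (-0.14 ± 0.08, adjusted p = 0.152), but did with rescaling by median-of-ratios (-0.20, adjusted p = 0.0106). Chrdl1, a secreted protein of cortical astrocytes that matures AMPA receptors, was below the filter, at 10.7 to 21.1 CPM in cortex and 2.11 to 4.31 in brainstem with no overlap.

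Of 9 tested endothelial genes 6 were higher in brainstem (39.1% of all tested genes were) and 2 in cortex (31.5%). Cd34, a sialomucin of endothelium and progenitor cells, went the other way from most of its list, with 57.9, 67.5 and 108 CPM in cortex and 26, 28.9 and 30.7 in brainstem (-1.25 ± 0.08, adjusted p = 6.40e-12). All cortex libraries were above all brainstem libraries, the highest being cortex DIO 1. Palmd was also higher in cortex (-0.55 ± 0.08). Slc16a1, the lactate and ketone body transporter MCT1, was higher in brainstem (0.81 ± 0.09), as was Pltp, a phospholipid transfer protein (0.48 ± 0.10), and S1pr1, a sphingolipid receptor, did not pass (-0.16 ± 0.08). The pericyte genes Rgs5 (0.56 ± 0.07) and Myl9 (0.39 ± 0.08) were higher in brainstem, and Kcne4 was below the filter (0.82 to 1.6 CPM in brainstem and 0.392 to 1.44 in cortex).

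Of 6 tested genes of meninges and fibroblasts 4 were higher in brainstem (39.1% of all tested genes were). Ptgds, a prostaglandin synthase of meninges and choroid plexus, had 669.6, 817 and 1036 CPM in brainstem and 216, 403 and 676 in cortex (0.999 ± 0.15, adjusted p = 3.92e-06), with ranges that overlapped slightly. Fn1, fibronectin, differed by 0.68 ± 0.10, Fmod, fibromodulin, by 0.51 ± 0.16 and Igfbp2 by 0.46 ± 0.11, while Igfbp5 did not pass (-0.20 ± 0.14). The call of Fmod was lost in lean libraries alone (0.33, adjusted p = 0.149) and that of Igfbp2 in DIO libraries alone (adjusted p = 0.0682). The summed level of the 7 listed genes was 971 to 1464 CPM in brainstem and 510.5 to 978 in cortex. How much of the vascular difference comes with meninges was not tested.

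Microglial genes gave small and opposed differences. P2ry12, a purinergic receptor of resting microglia, had 32.9 ± 4.3 CPM in cortex and 19.9 ± 2.23 in brainstem (-0.69 ± 0.07, adjusted p = 5.65e-09), and P2ry13 12.8 ± 1.49 and 9.09 ± 0.655 (-0.45 ± 0.07). Both lie within Med12l, which had a mean of 61.7 CPM. Ctss, the lysosomal protease cathepsin S, was higher in brainstem (0.30 ± 0.06) and Olfml3 did not pass (-0.05 ± 0.08). The other 9 listed genes were below the filter, and the summed level of all 13 was 149 to 177 CPM in brainstem and 153 to 189 in cortex.

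Other cell markers were low. Red cell and neutrophil genes were below the filter, with Alas2 at 2.55 to 9.29 CPM in brainstem and 1.02 to 5.85 in cortex, S100a8 at most 1.57 and 0.37 CPM and S100a9 at most 1.75 and 0.815. Of 6 ependymal cilium genes Ccdc39 was tested and was higher in cortex (-0.70 ± 0.07), and it overlaps Ttc14, at a mean of 139 CPM. The other 5, Enkur, Spag17, Cfap126, Pifo and Stoml3, were at most 6.28 CPM in any of the 20 libraries. Of the thalamic markers Gbx2 was 2.18 to 4.2 CPM in brainstem and 0 to 1.32 in cortex, Ntng1 differed by 0.35 ± 0.14 (adjusted p = 0.0332), a call lost in edgeR (adjusted p = 0.126), with rescaling, within either diet and in 6 of the 20 fits that left out 1 library, and Synpo2 did not pass (-0.13 ± 0.21). Cerebellar Car8 was higher in brainstem (1.46 ± 0.34; 1.16 without brainstem DIO 4), Barhl1 was 2.25 to 11.9 CPM in brainstem and 0 to 0.359 in cortex, and Cbln4 did not pass (0.22 ± 0.11). Neurod1 differed by -0.58 ± 0.33 (adjusted p = 0.125) and by -0.89 (adjusted p = 0.000429) without brainstem DIO 4. The pituitary gene Cga was at most 1.08 CPM.

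Glutamate synapse genes were higher in cortex as a list, in 11 of 12 tested members (31.5% of all tested genes were), 9 of them with no overlap (15.7%), with a median of -0.99. Gria2, the AMPA receptor subunit that limits calcium entry, had 581, 642 and 723 CPM in cortex and 189, 221 and 298 in brainstem (-1.49 ± 0.08, adjusted p = 3.16e-13). Gria3 differed by -1.02 ± 0.05, and Grin1, the obligatory NMDA receptor subunit, by less (587 ± 71.8 CPM in cortex, 461 ± 46.2 in brainstem, -0.34 ± 0.07), with overlapping ranges. Nsmf, which signals from NMDA receptors to the nucleus (-1.49 ± 0.06), Dlg3, the scaffold SAP102 (-1.36 ± 0.05), and Iqsec2, an exchange factor of the postsynaptic density (-1.30 ± 0.08), were at least 2-fold higher in cortex. The exception was Syndig1, which regulates AMPA receptor content of synapses (0.27 ± 0.11, adjusted p = 0.0284), and its call was lost without the 5 libraries that carried markers of other regions (adjusted p = 0.118), within either diet and without any one of cortex DIO 2, brainstem DIO 2, brainstem lean 1 and brainstem lean 3.

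Inhibitory transmission genes did not share a direction: of 9 tested, 6 were higher in brainstem (39.1% of all tested genes were) and 3 in cortex (31.5%), and 4 and 3 after rescaling by median-of-ratios or in edgeR. Slc32a1, the vesicular transporter that loads both GABA and glycine, had 172, 195 and 209 CPM in brainstem and 75.7, 90.0 and 111 in cortex (1.09 ± 0.06, adjusted p = 2.56e-13). Gad1, which makes GABA, had 179, 228 and 362 CPM in brainstem and 273, 339.5 and 428 in cortex (-0.56 ± 0.11, adjusted p = 0.000123). The transporter thus parted the regions completely in one direction and the enzyme was higher, with overlap, in the other. The other GABA-making enzyme, Gad2, had 235 ± 42.7 CPM in brainstem and 203 ± 34.5 in cortex (0.21 ± 0.09, adjusted p = 0.0482), a call lost in edgeR (adjusted p = 0.134), with rescaling, within either diet and in 13 of the 20 fits that left out 1 library.

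Receptor subunits varied in the size of their difference, and the tested genes of inhibitory transmission ran from -0.85 to 2.82. Gabrq, the theta subunit of GABA-A receptors known from monoamine nuclei and hypothalamus, had 18, 22.1 and 27.6 CPM in brainstem and 0.444, 2.96 and 4.49 in cortex (2.82 ± 0.21, adjusted p = 5.19e-11), and a mean of 38.7 CPM in hypothalamus. Between the 2 regions compared, Gabrq passed the filter only through brainstem, which fixed its direction. The neighbouring subunit gene Gabre was below the filter at 3.29 to 6.51 and 0.175 to 1.26 CPM, with no overlap. Glrb, the glycine receptor subunit that anchors at gephyrin, was higher in brainstem (0.60 ± 0.05), and Glra4 had 0.546 to 2.34 CPM there against 0 to 0.305 in cortex. Slc12a5, the chloride exporter KCC2, was 682 ± 82.6 CPM in brainstem and 607 ± 70.1 in cortex (0.17 ± 0.07, adjusted p = 0.045), a call lost in edgeR (adjusted p = 0.0749), with rescaling, in DIO libraries alone (adjusted p = 0.451), without the 5 libraries that stood apart and in 13 of those 20 fits.

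**Figure D5:**
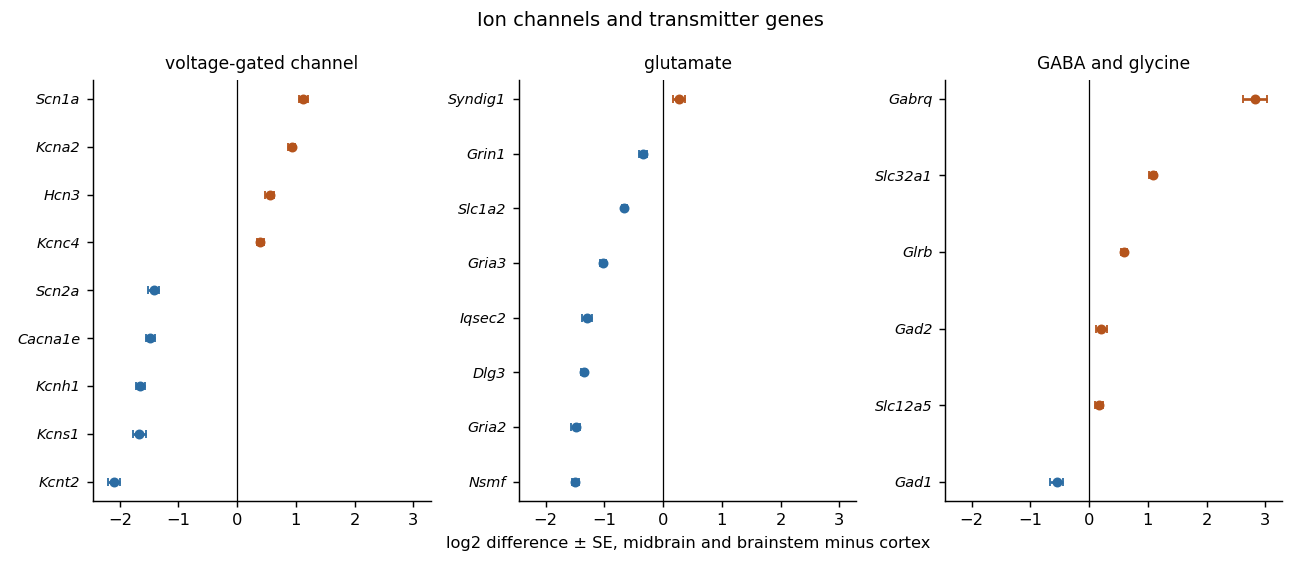
The log2 difference ± SE, brainstem minus cortex, of the tested genes named in the text among voltage-gated channels (9 of 24), glutamate genes (8 of 12) and genes of GABA and glycine transmission (6 of 9), coloured by direction; all of them passed. Among the channels Scn1a at 1.12 and Kcna2 at 0.93 lie right of 0, and Gabrq stands apart at 2.82. Gabrq, Kcnt2 and Kcns1 passed the filter on level through a single region, which fixed their direction.

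Voltage-gated channel genes were higher in cortex in 18 of 24 tested members (31.5% of all tested genes were), 14 of them with no overlap (15.7%), and higher in brainstem in 5 (39.1%), with a median of -0.66. Neighbouring sodium channel genes of chromosome 2 went opposite ways. Scn1a, which carries much of the sodium current of fast-spiking neurons, had 406, 443 and 461 CPM in brainstem and 145, 196 and 276 in cortex (1.12 ± 0.07, adjusted p = 8.13e-12), whereas Scn2a, prominent in cortical excitatory neurons, had 112, 126 and 188 CPM in brainstem and 322, 379 and 397 in cortex (-1.42 ± 0.09, adjusted p = 4.08e-12). Neither overlapped between regions. Scn9a was below the filter at 9.16 to 11.7 CPM in brainstem and 1.41 to 4.72 in cortex.

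Potassium channels also split. Kcna2, a low-threshold channel of axons, was higher in brainstem (641 ± 33 against 339 ± 47.1 CPM, 0.93 ± 0.06), as were Kcnc4 (0.40 ± 0.05) and the cation channel gene Hcn3 (0.55 ± 0.08). Kcnt2, a sodium-activated channel, was higher in cortex (28.4 ± 6 against 5.85 ± 0.914 CPM, -2.09 ± 0.10), as were Kcns1 (-1.67 ± 0.11) and Kcnh1 (-1.65 ± 0.08). Kcnt2 and Kcns1 passed the filter only through cortex, which fixed their direction. Cacna1e, of R-type calcium current, differed by -1.48 ± 0.08. Cortex DIO 1 had the highest values of Kcnt2, Kcnh1 and Kcna2.

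Of 15 presynaptic vesicle genes 6 were higher in brainstem and 5 in cortex, near the shares of all tested genes (39.1% and 31.5%), with a median of 0.01, which was -0.05 after rescaling by median-of-ratios. Abundant members differed little: Snap25 (0.16 ± 0.10, adjusted p = 0.144) and Dnm1 (-0.07 ± 0.04, adjusted p = 0.146) did not pass, and Syp, synaptophysin, was higher in cortex (-0.30 ± 0.04). Larger differences were those of Syt2, toward brainstem, and, toward cortex, Rims1, an organiser of the active zone (304 ± 31.6 against 131 ± 15.2 CPM, -1.21 ± 0.07), and Syt13 (-0.80 ± 0.07). Snapin differed by 0.66 ± 0.07 and Syt11 by 0.29 ± 0.04 toward brainstem.

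Among monoamine and acetylcholine genes 5 of 8 tested were higher in brainstem (39.1% of all tested genes were) and 3 in cortex (31.5%). Dbh, which makes noradrenaline, was below the filter but marked brainstem in all 10 libraries, at 7.52, 15 and 21.5 CPM against 0.131 to 0.599 in cortex, and Fev, a factor of serotonin neurons, ranged over 1.08 to 5.02 and 0 to 0.157 CPM. Htr2c, a serotonin receptor, had 93.4, 105 and 119.9 CPM in brainstem and 18, 45.3 and 59.6 in cortex (1.37 ± 0.14, adjusted p = 1.92e-08). Maoa, which degrades monoamines (0.90 ± 0.08), and Chrna4, a nicotinic receptor subunit (0.81 ± 0.08), were higher in brainstem without overlap, and Chrnb2, its usual partner, by less (0.26 ± 0.04). Receptors higher in cortex were Chrm4 and Adra1d, an alpha-1 adrenoceptor (24.8 ± 4.33 against 5.81 ± 1.28 CPM, -1.92 ± 0.11). Both passed the filter only through cortex, which fixed their direction. Htr5b was below the filter, at 2.56 to 11.6 CPM in brainstem and 1.11 to 3.43 in cortex.

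Of 7 tested peptide genes 1 was higher in brainstem (39.1% of all tested genes were) and 4 in cortex (31.5%). Scg2, a secretogranin of dense-core granules, was higher in brainstem (485 ± 28.6 against 263 ± 33.2 CPM, 0.89 ± 0.06). Pcsk2, the prohormone convertase (-1.03 ± 0.05), and Chgb, another granin (-0.41 ± 0.08), were higher in cortex, and Pcsk1n did not pass (0.22 ± 0.12). Below the filter, Crh had 7.19 to 13 CPM in brainstem and 2.93 to 5.6 in cortex and Nppc, a natriuretic peptide gene, 7.18 to 11.5 and 1.56 to 3.89, both without overlap. Oprl1, the nociceptin receptor and the only one of 11 peptide receptors tested, was higher in brainstem (0.77 ± 0.14). Tacr3, for neurokinin B, ranged over 8.72 to 13.7 CPM in brainstem and 1.33 to 4.03 in cortex, and Agtr2, for angiotensin, over 3.28 to 7.02 and 0.457 to 0.997.

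Cytoskeletal genes of axons and dendrites had a median of 0.01 (-0.06 after the same rescaling), with 7 of 15 higher in brainstem and 5 in cortex, near the shares of all tested genes (39.1% and 31.5%), and 7 and 7 after rescaling. Toward brainstem were Dst, which links microtubules to actin (1123 ± 59.8 against 595 ± 28.3 CPM, 0.92 ± 0.04), Nfasc, of nodes and axon initial segments (0.78 ± 0.04), Map1a (0.46 ± 0.06) and the vesicle motor Kif1a (0.37 ± 0.03). Toward cortex were Dcx, a microtubule protein of young neurons (-1.01 ± 0.07), Kif3b (-0.53 ± 0.07), Kif5c (-0.35 ± 0.04) and the dendritic Map2 (-0.26 ± 0.04). Sptan1, spectrin, did not pass (-0.13 ± 0.06, adjusted p = 0.0638) but did in edgeR (-0.19, adjusted p = 0.00111).

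Sterol synthesis genes were modestly higher in brainstem, in 5 of 5 tested (39.1% of all tested genes were) with a median of 0.48. They were Hsd17b7 (0.67 ± 0.08), Nsdhl (0.54 ± 0.06), Ebp (0.48 ± 0.06), Pmvk (0.32 ± 0.05) and Insig2, which restrains the pathway (0.31 ± 0.12), and Fdps was below the filter at no more than 3.4 CPM. Of 17 tested subunits of oxidative phosphorylation 14 were higher in brainstem (39.1% of all tested genes were), 1 of them without overlap (19.9%), with a median of 0.36. Ndufb5 (0.54 ± 0.12), Atp5g3 (0.46 ± 0.18), Ndufa10 (0.45 ± 0.06) and Cox7b (0.44 ± 0.11) had the largest differences, Atp5f1 (0.36 ± 0.08), Cox5b (0.33 ± 0.05) and Atp5c1 (0.28 ± 0.07) were abundant members, and Atp5e (0.27 ± 0.32) and Ndufc1 (0.39 ± 0.32), both high in the 8 libraries with high Atp5e, did not pass. Ndufb5, Atp5g3, Cox7b, Atp5f1 and Atp5c1 were also higher in those 8 libraries than in the others of the same region. For Ndufb5 these had 127 to 132 CPM against 86.1 to 92.6 in brainstem, and 84.2 to 92.4 against 56.1 to 66.8 in cortex. With a term for the Atp5e level, 16 of the 17 were higher in brainstem. In DIO libraries alone 8 of the 17 passed and in lean libraries alone 11. The call of Atp5g3 was lost without cortex DIO 2 (adjusted p = 0.0502) or brainstem lean 3 (adjusted p = 0.0508), in DIO libraries alone (adjusted p = 0.167), in lean libraries alone (adjusted p = 0.0695) and without the 5 libraries that stood apart (adjusted p = 0.0765). The call of Insig2 was lost in DIO libraries alone (adjusted p = 0.312), without the same 5 libraries (adjusted p = 0.107) and without brainstem lean 3 (adjusted p = 0.0515).

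Activity-induced genes were higher in cortex in 6 of 6 tested (31.5% of all tested genes were), with a median of -1.16. Nr4a2 and Btg2 had means under 10 CPM in brainstem (8.96 for Nr4a2). They passed the filter only through cortex, which fixed their direction. Another 4 of the 10 listed genes were below the filter. Nr4a2, an early response nuclear receptor that also specifies midbrain dopamine neurons, had 48.1, 64.7 and 84.6 CPM in cortex and 4.25, 8.52 and 17.4 in brainstem (-2.83 ± 0.16, adjusted p = 7.18e-13), with no overlap. The choice of the 15 genes furthest toward cortex required this lack of overlap. Ier5 differed by -2.03 ± 0.12, Btg2 by -0.94 ± 0.18, the clock gene Per2 by -0.76 ± 0.12 and Rgs2 by -0.29 ± 0.09, and Bdnf as given above. The call of Rgs2 was lost in the fit of 40 libraries (adjusted p = 0.0796) and in DIO libraries alone (adjusted p = 0.0928). Ptgs2, cyclooxygenase 2, was below the filter at 14.6 to 22 CPM in cortex and 0.512 to 2.24 in brainstem. Nr4a2 and Bdnf are counted among the cortical neuron genes as well.

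Further genes of the 15 furthest toward brainstem were Car14, a membrane carbonic anhydrase (62 ± 10.3 against 13.4 ± 3.69 CPM, 2.15 ± 0.13), Sgpp2, which removes phosphate from sphingosine 1-phosphate (100.1 ± 4.92 against 24 ± 4.54 CPM, 2.04 ± 0.09), and Itpkb, a second inositol trisphosphate kinase (181 ± 11.2 against 43.7 ± 6.51 CPM, 2.03 ± 0.07). Itpkb and Itpka, which catalyse the same reaction, differed in opposite directions, but Itpka passed the filter only through cortex, which fixed its direction. Nacc2, a transcriptional repressor (1.75 ± 0.07), Tmem255a (1.78 ± 0.11), Klhdc8a (1.75 ± 0.12) and Clcn5, a chloride and proton exchanger of endosomes (1.74 ± 0.08), were also among them. None of these overlapped between regions, as the choice of these genes required.

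Diet was the other labelled difference. Over both regions limma called 0 of 2382 genes between DIO and lean (0.0%), with 32 at an unadjusted p under 0.05. On the recovered reads edgeR also called 0, with 38 at an unadjusted p under 0.05, and DESeq2 called 2 (0.084%), with 47. Those 2, Ccdc141 (log2 DIO minus lean -0.23 ± 0.06 in limma, adjusted p = 0.999; -0.25 ± 0.05, adjusted p = 0.00746 in DESeq2) and Col25a1 (-0.29 ± 0.08; -0.32 ± 0.07, adjusted p = 0.023 in DESeq2), were lower in DIO. With Cavin2 (-0.23 ± 0.06) and Erich3 (-0.19 ± 0.06) they had the lowest p in limma. The counts at an unadjusted p were all below a share of 0.05 of the 2382 genes, the share expected without any effect.

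The difference between regions in the effect of diet was tested as an interaction. Limma called 0 of 2382 genes (0.0%), with 46 at an unadjusted p under 0.05, and edgeR and DESeq2 also called 0, with 62 and 66. These counts too were below a share of 0.05 of the genes. The 4 genes of lowest p were Rnf208 (0.34 ± 0.12), Arhgap6 (0.86 ± 0.31), Trpm7 (-0.30 ± 0.11) and Mccc1 (-0.29 ± 0.11), each with an adjusted p of 0.964 in limma. Within diets, the regional difference was called in 1314 genes in DIO libraries alone, 1312 of them among the 1682, and in 1452 in lean libraries alone, 1411 of them among the 1682. A missed threshold does not show that diet acted alike in the regions.

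Without the filter on level, 7808 genes entered the fits and 1 was called for each diet term. In edgeR 1 gene (0.0128%) had a diet effect over both regions, and in limma 1 gene (0.0128%) had a diet effect that differed between regions. Both were Gcg, the proglucagon gene, chosen here after its values were seen. Its 5 brainstem libraries from DIO mice had 5.33, 6.12, 3.94, 2.67 and 3.32 CPM and the 5 from lean mice 0.625, 0.772, 0.704, 0.692 and 0.815. All DIO values were above all lean values, and in cortex 2 of the 10 libraries had any read.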

How the data were processed

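RNA was sequenced from 10 midbrain and brainstem and 10 cortex samples with a stranded mRNA kit, per the labels' protocols. FastQC, STAR, HTSeq and DESeq2 are listed, with no role, in the submitters' processing notes; the sources used here give no version, build or strand setting. The authors deposited normalized counts in CPM for 13154 genes of 204 libraries; 1 further column of no sample and 1 incomplete gene were not used. All values returned whole reads (within 0.001), so library totals of 12.0 to 23.6 M reads could be recovered. No replicate pair was a duplicate (chi-square per degree of freedom at least 3.48 over 40 pairs).

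Genes averaging 10 CPM or more were fitted as log2(CPM + 1) by region and diet with limma 3.58.1 in R 4.3.3 (trend; Benjamini-Hochberg; threshold 0.05). edgeR 4.0.16 and DESeq2 1.42.0 on recovered reads, other pseudocounts, filters and scalings, and left-out libraries were alternatives. Limma and edgeR were also run on simulated data with 200 changed genes, far fewer than the 1682 called in the data. No outcome of that run is reported or used here. Named genes were the 15 furthest each way (at least 50 CPM in the higher region, no overlap), the 4 most abundant and 4 most different members of each list (short lists whole), 4 per diet term, and untested markers. Other genes named, including Ermn, Cntn2, Tmeff2, Lmo4, Rprm, Calb1, Gad2, Gria3, Scn2a, Syt11, Kif5c, Atp5e, Ndufc1, those given only as ranges outside the marker lists, and those of the closing section, were chosen after their values were seen. Members and lists were chosen with earlier results of these data known. Some genes of these lists are not reported by name here. Of the 204 genes considered for naming, 37 overlap another gene with at least 1 CPM in GENCODE M21, so their counts are uncertain.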

Additional observations from a re-analysis of the deposited data

Results flagged for a closer look

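In 39 of 376 groups of 10 libraries tested (1 gene in 1 region each), the highest or lowest library stood further from the next than Dixon's 95% critical ratio allows; chance flags about 1 in 20 groups, and genes of 1 library are not independent. Each value below is followed by the nearest of the other 9 libraries of its region. Brainstem DIO 1 was high in Alas2 9.29 CPM against 4.74. Brainstem DIO 2 was high in Cga 1.08 CPM against 0.462. Brainstem DIO 3 was high in Igfn1 9.1 CPM against 4.53, Nr4a2 17.4 CPM against 11.2, Dlx1 1.82 CPM against 0.833, Nsmf 236 CPM against 207, Btg2 12.1 CPM against 8.13 and Lhx6 2.61 CPM against 1.249. Brainstem DIO 4 was high in Calb1 126 CPM against 68, Zbtb18 185 CPM against 123, Car8 165 CPM against 40.8 and Neurod1 54.9 CPM against 10.7. Brainstem lean 1 was high in Hcn3 29.6 CPM against 25.1, Ier5 24.5 CPM against 17.3 and Gm11549 2.97 CPM against 1.09. Brainstem lean 2 was high in Syt6 48 CPM against 40.5, Dcx 22.7 CPM against 19.5, Erich3 94.2 CPM against 82.8 and Fmod 27.8 CPM against 19.8. Brainstem lean 4 was high in Ermn 296 CPM against 243. Cortex DIO 1 was high in Cd34 108 CPM against 80.4, Glrb 243 CPM against 200.3, Kcnt2 44.1 CPM against 30.2, Kcnh1 134 CPM against 101, Kcna2 451 CPM against 355, Pcsk2 509 CPM against 443, Alas2 5.85 CPM against 3.13 and Gm11549 59.9 CPM against 40.9. Cortex DIO 5 was high in Car14 21.9 CPM against 14.7, Clcn5 20.4 CPM against 15.9, Oxt 4.49 CPM against 0.0984 and Avp 15.6 CPM against 0.59. Cortex lean 1 was high in Penk 506 CPM against 309.5 and Ankrd63 63.4 CPM against 48.2. Cortex lean 3 was high in 2010300C02Rik 319 CPM against 285, Rprm 68.5 CPM against 47 and Nppc 3.89 CPM against 2.68. Cortex lean 3 was low in Zfhx4 9.83 CPM against 15.8 and Kif5c 969.9 CPM against 1113. 

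Gcg, which encodes proglucagon, the precursor of glucagon-like peptide 1 made by neurons of the caudal brainstem, was below the filter on level. Its 5 brainstem DIO libraries had 2.67 to 6.12 CPM (49 to 108 reads; mean 4.28 ± 1.42 SD) and the 5 lean ones 0.625 to 0.815 (11 to 18 reads; mean 0.721), a ratio of means of 5.93 with no overlap, and cortex had at most 0.0784 CPM. In limma without the filter it was the 1 gene of 7808 (0.0128%) whose diet effect differed between regions (1.54 ± 0.18, adjusted p = 0.000343); in edgeR without the filter that term did not pass (0.35, adjusted p = 0.9998), with almost no reads in cortex, while the diet term over both regions did (2.55, adjusted p = 8.48e-08; 1 gene, 0.0128%). The position of the dissection within the brainstem is not in the labels, and its part in this difference was not tested.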

How the results depend on the processing

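The count of regional differences stayed within 1.5 times of 1682 (1314 to 1912) under every alternative run except those without the filter on level, where 2918 genes (1673 higher in brainstem, 1245 in cortex; 1612 of the 1682 among them) passed in limma and 2927 in edgeR. The 2-fold count of 298 became 471 and 1140 in those fits and 57 at a 4-fold limit. Leaving out 1 library at a time gave 1645 to 1686 and 287 to 305 genes, and 0 to 0 for both diet terms. Rescaling by median-of-ratios moved the median of all genes by -0.06 and turned the balance from 932 higher in brainstem and 750 in cortex to 810 and 891; edgeR gave 831 and 875, and DESeq2 873 and 861. For diet, DESeq2 called 2 genes and edgeR without the filter 1, and for region by diet limma without the filter called 1. Of 161 tested genes, 130 kept their direction and side of the threshold under all alternatives. Sign changes were seen for Olfml3 (0.0378), Penk (0.049) and Synpo2 (0.0567) without the 5 libraries with markers of another region, and for Penk (0.31) in DIO libraries alone; none had passed. That leave-out, the Atp5e term and edgeR without the filter were chosen after seeing the data. The cause of these shifts was not tested. No paired analysis was possible because the titles carry no replicate numbers and the labels do not tie libraries to mice.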

Other observations

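Below 50 CPM, other genes also had large differences and were chosen after their values were seen. Those given here with a difference in either direction had means under 10 CPM in the lower region, so the filter fixed their direction. Toward brainstem, C130021I20Rik had 15.4, 21.1 and 28.8 CPM (lowest, median and highest library) against 0 to 0.479 in cortex (4.22 ± 0.11), and lies 681 bases from Lmx1b on the opposite strand. Mab21l1, the paralog of Mab21l2, had 24.3 ± 4.34 CPM in brainstem and 1.31 ± 0.743 in cortex (3.51 ± 0.15), and overlaps the gene Nbea. Lingo4 differed by 3.94 ± 0.12, Arhgap36 by 3.498 ± 0.28, Dgkk, a diacylglycerol kinase, by 3.23 ± 0.19 and Shox2, a homeobox factor whose gene overlaps Rsrc1, by 2.55 ± 0.43. For Shox2 the regions nearly met, at 11.1 CPM in the lowest brainstem library and 10.7 CPM in cortex DIO 5.

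Toward cortex, Lhx6, a LIM homeobox factor of interneurons, had 19.7, 21.3 and 27.1 CPM against 0.227, 0.534 and 2.61 in brainstem (-3.78 ± 0.16). Gm11549 differed by -4.73 ± 0.20, Ankrd63 by -4.36 ± 0.21 and Rtn4rl2, a Nogo receptor relative, by -3.74 ± 0.18.

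Prlh, which encodes prolactin-releasing peptide, was at 0.462 to 0.906 CPM in the 5 brainstem DIO libraries (7 to 16 reads) and 0.0521 to 0.247 in the 5 lean ones (1 to 5 reads), without overlap. Its region by diet term did not pass in limma without the filter on level (0.45 ± 0.08, adjusted p = 0.0735).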
